A study of Homo sapiens with 16 samples.

Results

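Open chromatin was compared between MOLT4 cells given ACBI-1 and MOLT4 cells given DMSO, the solvent control, with cells taken at 24 h. The comparison rests on 4 of the 16 libraries of the series, 2 with 100 nM ACBI-1 and 2 with DMSO, chosen by the line, treatment and time in their titles. MOLT4 is an established human T-cell acute lymphoblastic leukaemia (T-ALL) line. The other 12 libraries hold the same line at 3 h and the T-ALL line DND41 at 3 h and 24 h, again with 2 libraries a group. Peaks of the 4 lists on chromosomes 1 to 22 and X that shared at least 1 base were merged, which gave 63363 regions. A region is called lost where both DMSO libraries and neither ACBI-1 library had a peak, gained where the reverse held, and kept where all 4 libraries had a peak. Whether replicate libraries were made from separate cultures is not given in the labels, and p-values therefore cover no more than the variation among the deposited libraries, which may be technical.

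ATAC-seq marks open chromatin by the insertions of the Tn5 transposase. SWI/SNF complexes use the energy of ATP to slide and evict nucleosomes, and in lymphoid cells they help transcription factors such as RUNX1, ETS1 and GATA3 to reach their enhancers. ACBI-1 is a PROTAC, a molecule with 2 binding ends, which brings the bromodomain proteins SMARCA2, SMARCA4 and PBRM1 to the VHL ubiquitin ligase and so to degradation. SMARCA2 and SMARCA4 are the alternative ATPases of the complex, and PBRM1 is a subunit of its PBAF form. Protein levels of these targets were not analysed here.

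The cell line field of all 4 samples names DND41, while their titles name MOLT4. All 4 libraries shared most regions with a MOLT4 library of 3 h. The DMSO libraries shared 53.4% to 64.3% of merged regions with the MOLT4 libraries of 3 h and 34.4% to 44.6% with the DND41 libraries, and the ACBI-1 libraries shared 39.4% to 51.0% and 31.9% to 40.6%. T-lineage loci differed in how many regions called in DMSO 1 and DMSO 2 alike had a peak in all 4 libraries. The number was 6 of 6 around the genes of the CD3 chains of the T-cell receptor. It was 9 of 9 around the kinase gene LCK. It was lower at other loci, such as 2 of 4 at the surface molecule gene CD2 and 1 of 6 at the co-stimulator gene CD28. Over the 13 T-lineage surface and signalling loci it was 52 of 79. Windows chosen for other lineages were not empty, with 3 regions around the myeloid factor gene SPI1 and 2 around the erythroid factor gene GATA1, while the window of the liver gene ALB had no region in both DMSO libraries. The window of the CDKN2A tumour suppressor, which is deleted in many T-ALL lines, had 1 region in both DMSO libraries. That region lay at the placed start and had a peak in all 4 libraries. It does not show whether the whole gene is present, and copy number was not tested.

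The DMSO lists held 39679 and 39117 peaks and the ACBI-1 lists 33870 and 28751. Both ACBI-1 lists were shorter than both DMSO lists. The means were 39398 ± 397 and 31310.5 ± 3620 peaks (SD, n = 2 each), a log2 ratio of -0.34. Covered sequence was 20.9 and 19.9 Mb with DMSO and 15.8 and 13.97 Mb with ACBI-1, a log2 ratio of -0.45. Each of these differences gave an exact two-sided permutation p = 0.33, the smallest that 2 against 2 libraries allow. The lists give positions only and read depth is unknown, so a missing peak is one not called, and closed sites cannot be told apart from weak ones.

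Of the 30274 regions in both DMSO libraries, 8452 (27.9%) were lost and 17835 (58.9%) were kept. The other 3987 (13.2%) had a peak in 1 ACBI-1 library, 2356 in replicate 1 only and 1631 in replicate 2 only. Of the 20039 regions in both ACBI-1 libraries, 917 (4.58%) were gained, so that there were 9.22 lost regions for each gained one. A further 28460 regions, 44.9% of the merged set, were in 1 library only. When each list was cut to its 28751 widest peaks, 4707 regions were lost and 1640 gained, a ratio of 2.87. The cut removed more narrow peaks from the DMSO lists, which were longer. Leaving out DMSO replicate 1 or 2 gave 15120 or 15719 lost regions, since a single DMSO library then chose them, and leaving out an ACBI-1 replicate gave 6431 or 10481 gained ones.

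Around genes of T-ALL biology, peaks were missing with ACBI-1 mostly away from gene starts. A total of 81 loci in 7 lists were examined, each a gene body with 50 kb on each side. Their hg19 windows were placed from general knowledge of that build, because no annotation of it was at hand, and a window can hold neighbouring genes. The chromosome matched the RefSeq table of GRCh38.p14 at 81 of 81 loci and the gene length matched within 10% at 70. The other 11 were SMARCE1, GATA3, IKZF1, TCF7, RBPJ, the CD3 cluster, CD5, ZAP70, RAG1/RAG2, S1PR1 and KLF2. Their lengths differed by 11.87% at S1PR1 to 342.3% at the CD3 cluster, and the placement of these windows is less sure. The windows held 484 regions of both DMSO libraries, of which 121 (25%) were lost and 294 (60.7%) kept, beside 27.9% and 58.9% over the genome. Within 1 kb of a placed start, 3 of 72 regions were lost and 64 kept, while elsewhere in the windows 118 of 412 were lost and 230 kept.

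Regions at starts were also broader, with a median DMSO width of 790.5 bp against 520 bp elsewhere. Within the narrow tertile of DMSO width, up to 409.5 bp, 2 of 8 start regions and 67 of 132 others were lost. Within the middle tertile, up to 695.5 bp, the counts were 1 of 20 and 47 of 163, and within the broad tertile 0 of 44 and 4 of 117. The share lost was thus lower at starts in each tertile, as a description over few start regions. By locus, the placed start had a kept region at 56 loci, a lost region as its nearest at IL7R and CCR7 only, another pattern at 8 and no region at 15.

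**Figure D1:**
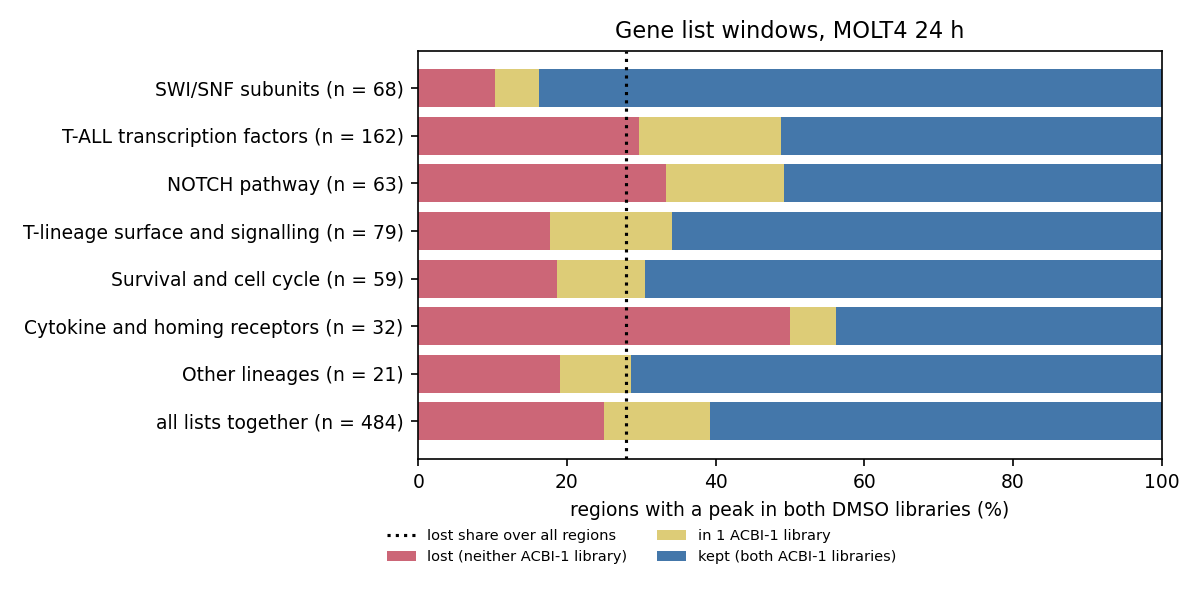
Regions of both DMSO libraries in the 81 windows, by gene list, as the percent lost, in 1 ACBI-1 library and kept, with the share over all regions for comparison. The share lost runs from 10.3% for SWI/SNF subunits to 50% for cytokine and homing receptors, against 27.9% over all regions.

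Receptors for cytokines and for lymphocyte homing were the list with the highest share of lost regions, 16 of 32 (50%), with 14 kept. The median DMSO width of its regions was 412.8 bp, against 544.2 bp over all lists. IL7R encodes the interleukin-7 receptor alpha chain, which gives survival signals to immature T cells and is a NOTCH1 target in T-ALL. Its window held 8 regions, of which 6 were lost and 2 kept. The region at its start, chromosome 5 from 35856584 to 35857202 (hg19), was 185 and 619 bp wide in the DMSO libraries and had no peak in either ACBI-1 library. The same region had a peak in both MOLT4 DMSO libraries of 3 h and in neither ACBI-1 library of 3 h, but in all 4 DMSO and all 4 ACBI-1 libraries of DND41. The broadest lost region of the window, from 35908276 to 35909026, was 715 and 651 bp wide in the DMSO libraries and followed the same pattern at 3 h and in DND41. The 2 kept regions, from 35884318 to 35885101 and from 35924947 to 35925459, had a peak in all 12 other libraries too.

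To show how the start of IL7R differs in base composition from starts that kept their peak, the 250 bases before the start are given for IL7R and for 3 loci with lost regions and a kept start: BACH2, a transcription factor of lymphoid cells, KLF2, a factor that drives genes of lymphocyte egress, and S1PR1, the receptor that guides that egress. Sequences are from RefSeq (GRCh38.p14), 5′ to 3′ on the gene's strand, matched by symbol and not by position, since the build differs from that of the peaks. CG dinucleotides are in capitals. They lie at chr5:35856641-35856890 (plus strand), chr6:90296844-90297093 (minus strand), chr19:16324576-16324825 (plus strand) and chr1:101236769-101237018 (plus strand).
IL7R: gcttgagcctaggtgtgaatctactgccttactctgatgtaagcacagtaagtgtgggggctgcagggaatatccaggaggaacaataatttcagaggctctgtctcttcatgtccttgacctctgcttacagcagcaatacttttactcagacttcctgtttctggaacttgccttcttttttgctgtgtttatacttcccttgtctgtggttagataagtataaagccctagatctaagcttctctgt
BACH2: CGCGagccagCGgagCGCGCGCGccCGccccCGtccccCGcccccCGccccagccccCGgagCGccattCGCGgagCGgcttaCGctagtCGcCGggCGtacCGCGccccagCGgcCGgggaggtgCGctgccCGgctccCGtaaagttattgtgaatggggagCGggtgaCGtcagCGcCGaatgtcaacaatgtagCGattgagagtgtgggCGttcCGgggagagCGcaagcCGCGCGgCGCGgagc
KLF2: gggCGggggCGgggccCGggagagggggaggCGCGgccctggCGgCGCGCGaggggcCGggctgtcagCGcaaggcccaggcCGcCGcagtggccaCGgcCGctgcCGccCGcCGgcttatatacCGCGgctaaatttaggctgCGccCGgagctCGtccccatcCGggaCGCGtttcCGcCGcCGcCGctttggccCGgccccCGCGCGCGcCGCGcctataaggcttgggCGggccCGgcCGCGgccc
S1PR1: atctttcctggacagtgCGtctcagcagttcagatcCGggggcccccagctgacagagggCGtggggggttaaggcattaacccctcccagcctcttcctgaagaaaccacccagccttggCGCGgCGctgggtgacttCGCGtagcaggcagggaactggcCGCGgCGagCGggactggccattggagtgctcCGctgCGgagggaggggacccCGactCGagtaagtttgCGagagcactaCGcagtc

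The IL7R sequence holds 0 CG dinucleotides, as do 6.06% of the 35116 promoters in the RefSeq table, whose median is 11. BACH2 holds 40, KLF2 41 and S1PR1 18. Over the 26 loci with a kept start and a single promoter in the table, the number ran from 3 to 48 with a median of 27.5. A low number was not particular to IL7R: the median was 5 over 6 loci with another pattern at the start and 4 over 5 loci with no region there. Motifs of 4 kinds were searched on both strands: CCGGAAGT for ETS factors, in 3.42% of all promoters of this length, TGTGGTT for RUNX factors, in 3.65%, AGATAA for GATA factors, in 9.17%, and TGANTCA for AP-1, in 6.57%. The ETS letters contain a CG, so the IL7R sequence, with 0 CG, could not match them. Shorter ETS cores were not searched. Of the 4 sequences, only that of IL7R held a match to any of these letters. It had TGTGGTT at bases 43 to 37 before the start and AGATAA directly after that at bases 36 to 31. Such a match is a description of the letters and no evidence of binding.

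The start region of the chemokine receptor CCR7, chromosome 17 from 38721549 to 38721964, was 278 and 262 bp wide with DMSO and had no peak with ACBI-1. At 3 h it had a peak in both DMSO libraries and in ACBI-1 replicate 2, and in DND41 in 4 of 4 DMSO and 0 of 4 ACBI-1 libraries. CXCR4, the receptor for the niche chemokine CXCL12, kept a broad region at its start, chromosome 2 from 136874122 to 136876093, with 1805, 1628, 1779 and 1562 bp in DMSO 1, DMSO 2, ACBI-1 1 and ACBI-1 2. A narrower region beside it, from 136876721 to 136877211, was lost, as was 1 of the 2 farther regions. The interleukin-2 receptor alpha gene IL2RA had 2 of 5 regions lost and 3 kept. At KLF2 the start region was kept, with widths of 829, 756, 263 and 806 bp, and both other regions were lost; KLF2 and CCR7 were chosen after their values were seen.

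Among transcription factors of T-ALL, 48 of 162 regions (29.6%) were lost and 83 kept, near the 27.9% lost over all regions. BACH2 had 8 of 11 regions lost. Its 3 kept regions included that at the start, chromosome 6 from 91005611 to 91006999, which measured 1379, 1235, 1040 and 1131 bp in DMSO 1, DMSO 2, ACBI-1 1 and ACBI-1 2. The lost ones lay within the gene body, from 10.8 to 344 kb downstream of the start. At 3 h, 10 of the 11 BACH2 regions had a peak in each DMSO library and 8 and 7 in the ACBI-1 libraries, against 3 and 3 with ACBI-1 at 24 h. These regions were defined by the DMSO libraries of 24 h, so times are given side by side without a test. Peak names also carry a different tag at 3 h, and whether it marks another setting of the peak calling is not known.

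LEF1, a partner of beta-catenin in T-cell development, had 6 of 17 regions lost and 8 kept. ETS1, a founding ETS factor, had 5 of 13 lost and 6 kept. The start of LEF1 had kept regions at 0.039 kb and on both sides of it, while its lost regions lay 55.5 to 164.7 kb downstream of it. TCF3, which encodes the E proteins that pair with TAL1, had 6 of 6 regions kept, and RUNX3 had 2 of 3 kept and none lost. TAL1, an oncogenic factor of a T-ALL subtype, had 1 of 4 regions lost and 3 kept. Of the kept ones, those from 47690861 to 47691625 and from 47704609 to 47705524 on chromosome 1 had a peak in all 8 MOLT4 libraries and in none of the 8 DND41 libraries. RUNX1, named after its values were seen, had 3 of 20 regions lost, 7 kept and 10 with a peak in 1 ACBI-1 library.

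In the NOTCH pathway list, 21 of 63 regions (33.3%) were lost and 32 kept, and all 10 regions at starts were kept. With windows of 100 kb on each side the share lost was 25.58%, below and not above the 27.9% over all regions. ZMIZ1, a cofactor of NOTCH1 in T-ALL, had 7 of 14 regions lost and 6 kept. IGF1R, the receptor for insulin-like growth factor 1 and a NOTCH1 target in T-ALL, had 6 of 13 lost and 4 kept, with the region at its start kept. DTX1, a NOTCH target and regulator, had 3 of 6 lost. In contrast NOTCH3 had 4 of 4 regions kept, and RBPJ, the DNA-binding partner of NOTCH, had 3 of 4 kept and none lost. NOTCH1 itself had 1 of 7 lost and 4 kept.

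T-lineage surface and signalling genes had 14 of 79 regions (17.7%) lost and 52 kept, against 27.9% lost over all regions. LCK kept 9 of 9 and the CD3 cluster 6 of 6. Some of these kept regions differed in width. The region at the LCK start, chromosome 1 from 32715476 to 32717040, measured 1539 and 1118 bp with DMSO and 618 and 250 bp with ACBI-1, without overlap between the groups. The CD3 region from 118213209 to 118213804 on chromosome 11 measured 596 and 484 bp with DMSO and 302 and 300 bp with ACBI-1. Both regions were chosen after their values were seen. Over all kept regions, 41.5% were narrower in all 4 pairs of an ACBI-1 and a DMSO library. The most lost regions in this list were at RAG1/RAG2, the recombinase of antigen receptor genes, with 3 of 9, at CD7 with 3 of 8 and at the phosphatase gene PTPRC with 2 of 7.

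In the survival and cell cycle list, 11 of 59 regions (18.6%) were lost and 41 kept, against 27.9% lost over all regions. BCL2, an inhibitor of apoptosis, had 4 of 6 regions lost. The 4 lost BCL2 regions lay 163.8 to 220.7 kb downstream of the start and had DMSO widths from 276 to 823 bp, while the start region measured 1376 and 677 bp with DMSO and 736 and 1149 bp with ACBI-1. All 4 lost regions had a peak in all 4 DND41 DMSO libraries, and 3 of them in all 4 DND41 ACBI-1 libraries. MCL1 and BCL2L11, which encode an inhibitor and an activator of apoptosis, each had 1 of 4 lost. The cyclin gene CCND2 had 3 of 4 regions kept and CDKN2A 1 of 1.

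**Figure D2:**
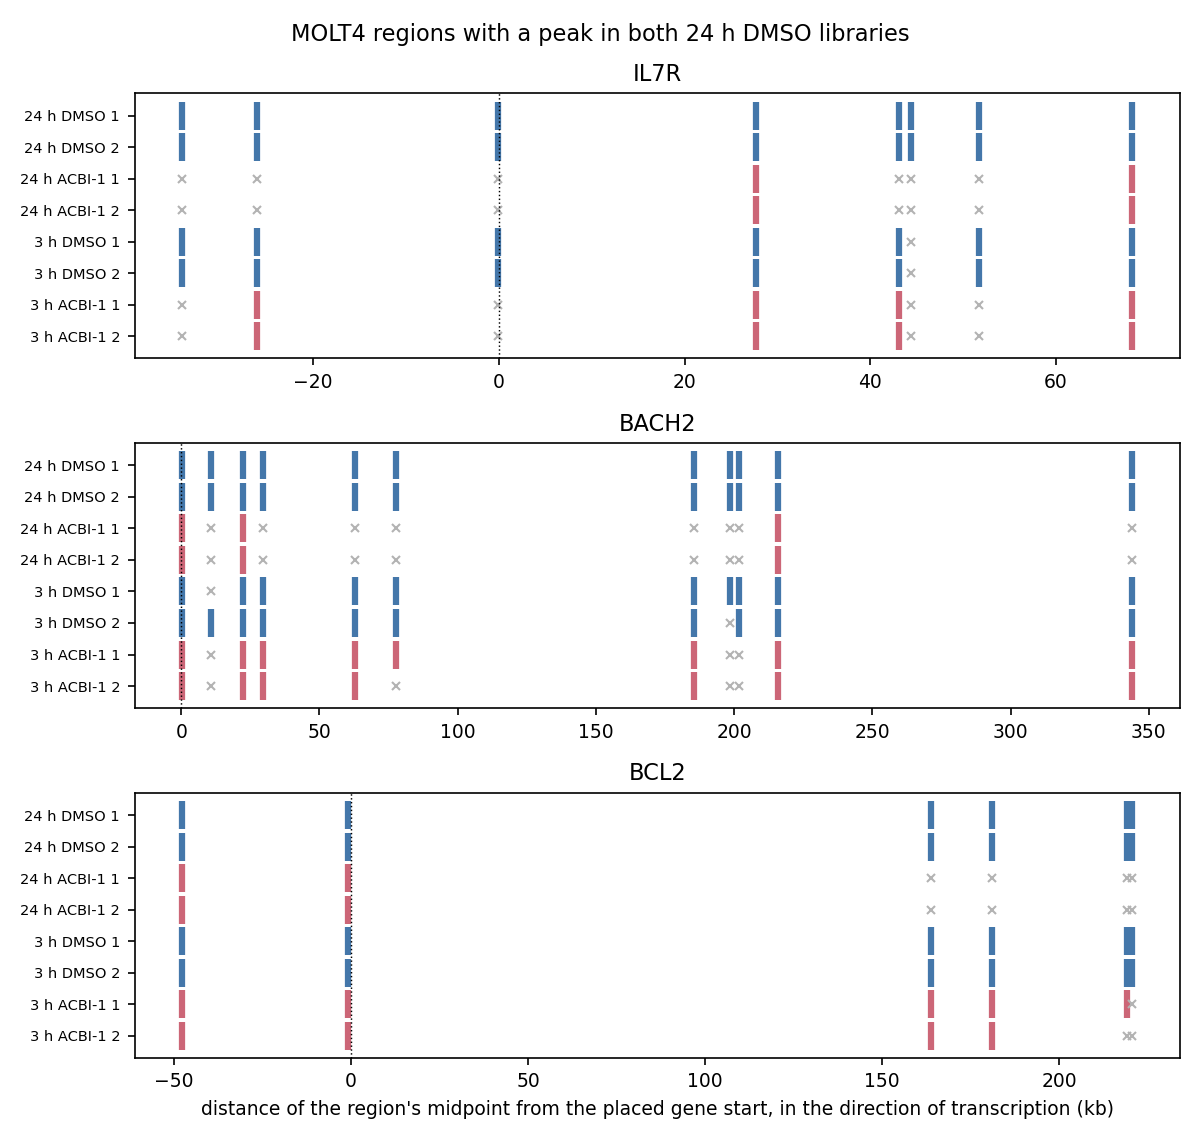
Peaks of the 8 MOLT4 libraries at IL7R, BACH2 and BCL2, as distance in kb from the placed gene start; a bar marks a peak, a grey cross a region without one, and the dotted line the start. At 24 h the ACBI-1 rows keep 2 of 8, 3 of 11 and 2 of 6 regions.

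SWI/SNF subunit genes had 7 of 68 regions (10.3%) lost and 57 kept, the lowest share of the 7 lists with these windows, though with 10 kb windows that of the other lineages was lower, at 10%. Their regions were also broad, with a median DMSO width of 655.8 bp, and all 16 at starts were kept. The target gene SMARCA2 had 4 of 4 regions kept, and SMARCA4 had 1 of 5 lost and 3 kept. The SMARCA4 start region, chromosome 19 from 11071134 to 11072143, measured 883, 846, 1000 and 832 bp in DMSO 1, DMSO 2, ACBI-1 1 and ACBI-1 2. The SMARCA4 window also held 2 gained regions, from 11047242 to 11047571 and from 11052642 to 11053090, neither with a peak in any MOLT4 library of 3 h. In DND41 they had a peak in 1 and 2 of 4 DMSO libraries and in 0 of 4 ACBI-1 libraries. PBRM1, the remaining target, had 4 of 4 kept. ARID1B, a large subunit of the BAF form, had 3 of 10 lost, SMARCD1 1 of 5 and SMARCC2 1 of 9, while ARID1A and DPF2 each had 6 of 6 kept.

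The list of other lineages had 4 of 21 regions (19.05%) lost and 15 kept, against 27.9% lost over all regions. The share lost in this list was 10% with 10 kb windows and 11.43% with 100 kb windows. EBF1, a B-cell factor, had 2 of 3 lost and MS4A1 1 of 2. SPI1 had 3 of 3 kept and PAX5 2 of 3. The counts are small and some of these regions lie at neighbouring genes.

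Lost regions were narrow in the DMSO libraries. Their median peak width was 347 and 338 bp in DMSO 1 and DMSO 2, against 730 and 700 bp for kept regions and 426 and 404 bp for regions with a peak in 1 ACBI-1 library. By decile of DMSO width, the share lost ran from 65.2% of regions 158 to 262.5 bp wide to 0.529% of those 1024 to 2884 bp wide. Gained regions were narrower still, with medians of 266 and 255 bp in the ACBI-1 libraries. Since the width and the class come from the same DMSO lists, these values are a description.

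Sites chosen without the 24 h libraries showed where peaks were missing. The 35117 regions with a peak in both MOLT4 DMSO libraries of 3 h were scored at 24 h. Of these, 84.5% and 84.2% had a peak in the DMSO libraries and 58.9% and 56.3% in the ACBI-1 libraries, a difference of -26.8 points. In the broad tertile, from 525 to 2888 bp, the shares were 99.7% and 99.6% with DMSO and 93.3% and 92.4% with ACBI-1. In the narrow tertile, from 134 to 298 bp, they were 61.6% and 61.3% against 27.8% and 24.3%. With the 4 lists cut to equal length the difference was -16.08 points over all sites and -11.73 points in the narrow tertile, in place of -35.4. That cut kept the widest peaks. The shortest left were 279 and 267 bp with DMSO and 193 and 159 bp with ACBI-1, so it removed more narrow peaks from the DMSO lists. In each of the 3 tertiles the groups did not overlap, with an exact permutation p = 0.33. The difference was greatest in the decile from 283 to 331.5 bp, at -44.3 points, and was -24.8 points in the narrowest decile and -0.527 in the broadest.

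**Figure D3:**
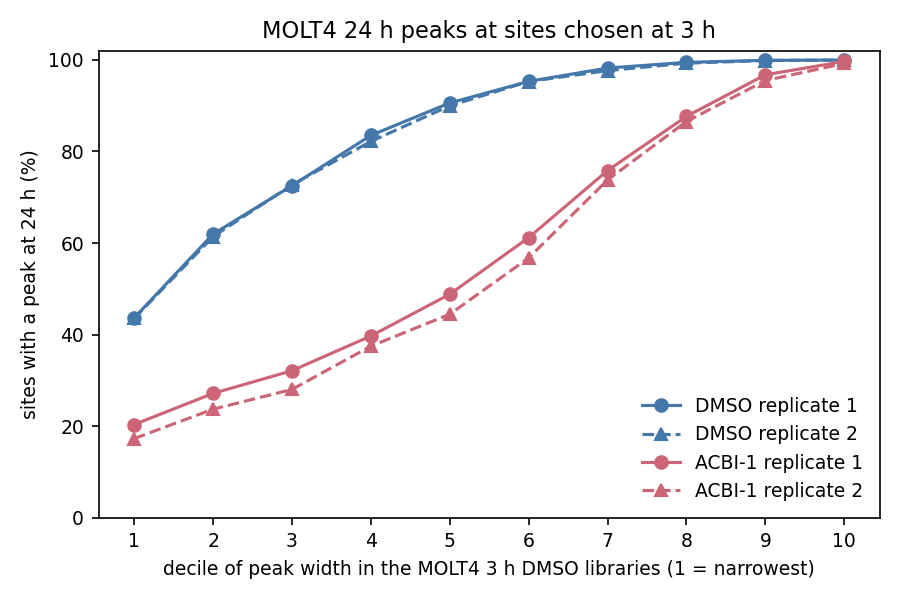
Percent of the 35117 MOLT4 DMSO sites of 3 h that had a peak in each of the 4 libraries of 24 h, by decile of site width at 3 h. The lines of the 2 groups lie farthest apart in the decile from 283 to 331.5 bp and meet near 100% in the broadest.

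Kept regions were narrower with ACBI-1. Their median width was 730 and 700 bp with DMSO and 643 and 617 bp with ACBI-1, a log2 difference of -0.18 (-11.9%; exact permutation p = 0.33, the smallest possible). The median log2 ratio of width was -0.09 to -0.20 over the 4 pairs of an ACBI-1 and a DMSO library, and -0.04 between the 2 replicates of each group. In all 4 pairs, 7396 kept regions (41.5%) were narrower and 1535 (8.61%) broader.

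Single regions went beyond this shift. Of the 5 kept regions that narrowed most, that on chromosome 17 from 62980907 to 62982725 went from 1538 and 1756 bp with DMSO to 302 and 255 bp with ACBI-1, and that on chromosome 7 from 151136957 to 151138953 from 1997 and 1572 bp to 339 and 271 bp. A region on chromosome 15 from 70784507 to 70785504 measured 909 and 882 bp with DMSO and 169 and 170 bp with ACBI-1. Among the 5 that broadened most, the region on chromosome 1 from 155139559 to 155140557 measured 237 and 311 bp with DMSO and 996 and 938 bp with ACBI-1. That on chromosome X from 39873096 to 39874451 measured 350 and 198 bp with DMSO and 880 and 1158 bp with ACBI-1. These were picked for their size of change and carry no test.

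The broadest lost region lay on chromosome 1 from 180914473 to 180915863. It was 1370 and 1357 bp wide with DMSO, and the nearest ACBI-1 peaks were 7.26 and 7.27 kb away. It had a peak in all 12 other libraries, the 6 with ACBI-1 included. Among the 10 broadest lost regions, 2 others, at 101079255 to 101080420 on chromosome 1 and at 75924406 to 75925660 on chromosome 17, were likewise found with a peak in all 6 other ACBI-1 libraries. The region at 81531994 to 81533071 on chromosome 4, 1024 and 1076 bp wide with DMSO, showed the reverse, with a peak in all 6 other DMSO libraries and in none of the 6 other ACBI-1 libraries. Its nearest ACBI-1 peaks at 24 h were 244.5 and 250.3 kb away.

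Lost regions had fewer peaks with ACBI-1 in the 12 libraries that did not define them. On average 62.1% ± 18.96 of the 8452 lost regions had a peak in the other DMSO libraries and 28.1% ± 12.9 in the other ACBI-1 libraries (SD, n = 6 each). The share fell by 34.0 points, lower in 12 of 12 pairs of libraries within a line and time, with an exact two-sided permutation p = 0.00926 over all exchanges of treatment labels within line and time, the smallest possible, and p = 0.0154 after Benjamini-Hochberg adjustment over 5 comparisons. Kept regions fell by 5.23 points, from 89.4% ± 6.15 to 84.2% ± 7.61, also in 12 of 12 pairs (exact permutation p = 0.00926, adjusted 0.0154). The difference between the classes, -28.8 points, had the same exact p and adjusted p. With lists cut to equal length the difference was -1.16 points for kept regions (exact permutation p = 0.111) and -20.8 points for lost ones (p = 0.00926). That cut removed more narrow peaks from the DMSO lists than from the ACBI-1 lists. Among kept regions as narrow as the lost ones, 77.7% had a peak with DMSO and 67.7% with ACBI-1, and the difference between the classes at matched width was -23.98 points (exact permutation p = 0.00926).

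By group, lost regions had a peak in 85.9% and 86.3% of cases in the MOLT4 DMSO libraries of 3 h and in 39.2% and 45.1% in the ACBI-1 libraries of 3 h. In DND41 at 24 h the shares were 48.5% and 47.1% with DMSO and 14.3% and 13.9% with ACBI-1, and at 3 h 57.1% and 47.7% against 24.01% and 32.15%. The groups did not overlap in any of these 3 settings. In DND41 alone the difference was -29.0 points (exact permutation p = 0.0556, the smallest that this design allows).

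**Figure D4:**
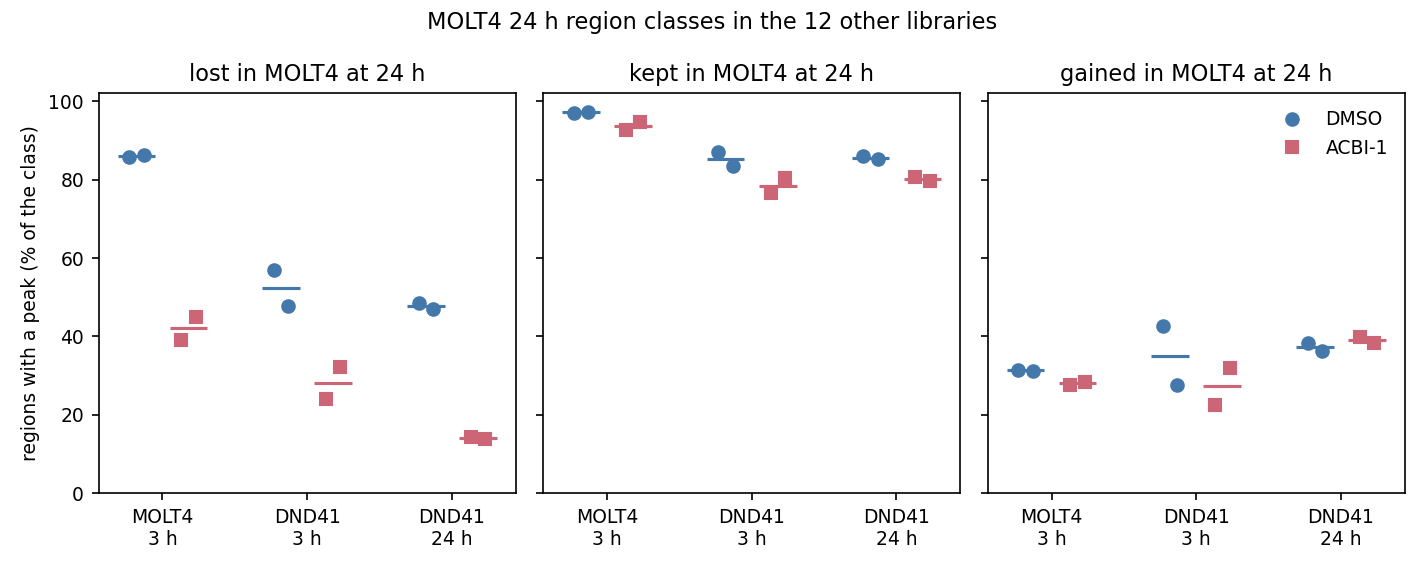
Percent of lost, kept and gained regions with a peak in each of the 12 libraries that did not define them, grouped by line, time and treatment; each point is 1 library. ACBI-1 points lie below DMSO points in every line and time for lost regions, with a mean difference of -33.99 points, against -5.23 points for kept regions.

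Of the 8452 lost regions, 6769 (80.1%) had a peak in both MOLT4 DMSO libraries of 3 h. Of those, 2410 (35.6%) had a peak in neither ACBI-1 library of 3 h and 2361 (34.9%) still had one in both. For kept regions the same shares were 1.54% and 93.2%. In DND41, 3061 lost regions (36.2%) had a peak in no DMSO library and 3062 in all 4, and 555 of the latter had a peak in no DND41 ACBI-1 library. Among lost regions 212 (2.51%) had a peak in all 6 other DMSO libraries and in no other ACBI-1 library, and 290 (3.43%) had one in all 6 other ACBI-1 libraries.

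Gained regions differed in direction between the groups of other libraries. Over all 12 they had a peak in 34.6% ± 5.50 of cases with DMSO and 31.5% ± 6.70 with ACBI-1, a difference of -3.11 points (SD, n = 6 each; exact permutation p = 0.407, adjusted 0.417; lower in 7 of 12 pairs). In MOLT4 at 3 h the shares were 31.5% and 31.2% with DMSO and 27.6% and 28.5% with ACBI-1, lower in 4 of 4 pairs. In DND41 at 24 h they were 38.3% and 36.3% with DMSO and 39.9% and 38.4% with ACBI-1, higher in 4 of 4 pairs, and in DND41 at 3 h 42.6% and 27.6% against 22.5% and 32.1%, with overlap. The smallest p within any of these 3 settings is 0.33 by exact permutation, and the difference between the settings was not tested. Relative to kept regions the difference was 2.12 points (exact permutation p = 0.417). With all 16 lists cut to their 26145 widest peaks the gained share was 17.9 points higher with ACBI-1 (exact permutation p = 0.00926). Every DMSO list was longer than every ACBI-1 list, so that cut removed more narrow peaks from the DMSO lists. Gained regions are narrow, so this value cannot be told apart from an effect of the cut. Without ACBI-1 replicate 1 or 2 the difference relative to kept regions was 4.69 or 5.73 points (exact permutation p = 0.00926 each). A single ACBI-1 library then chose the gained regions, 6431 or 10481 in number. The difference was -1.95 or -1.53 points for the gained share itself and -6.64 or -7.26 points for the kept share. A peak in all 6 other ACBI-1 libraries and no other DMSO library was seen for 1 gained region, at 10085218 to 10086132 on chromosome 21, and the reverse also for 1. A further 168 (18.3%) had a peak in no other library. The broadest gained region, on chromosome 1 from 86046412 to 86047159, measured 748 and 699 bp and had a peak in all 4 MOLT4 libraries of 3 h. The next, on chromosome 22 from 29075400 to 29076080, measured 536 and 681 bp and had a peak in no other library.

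Chromosomes differed in the share lost. It was highest on chromosome 18, with 163 of 437 regions (37.3%), and chromosome 13, with 280 of 796 (35.2%), and lowest on chromosome 19, with 129 of 1259 (10.25%), and chromosome 17, with 281 of 1417 (19.8%). Chromosome 19 is rich in genes and chromosomes 13 and 18 are poor in them. The median DMSO width of these regions was 615 bp on chromosome 19 and 493 bp on chromosome 18. Within the narrow tertile, 32.4% of regions on chromosome 19 and 68.2% on chromosome 18 were lost, against 55.6% over all chromosomes. In the middle tertile the shares were 7.03%, 28.8% and 25.5%, so the order held at like width.

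**Figure D5:**
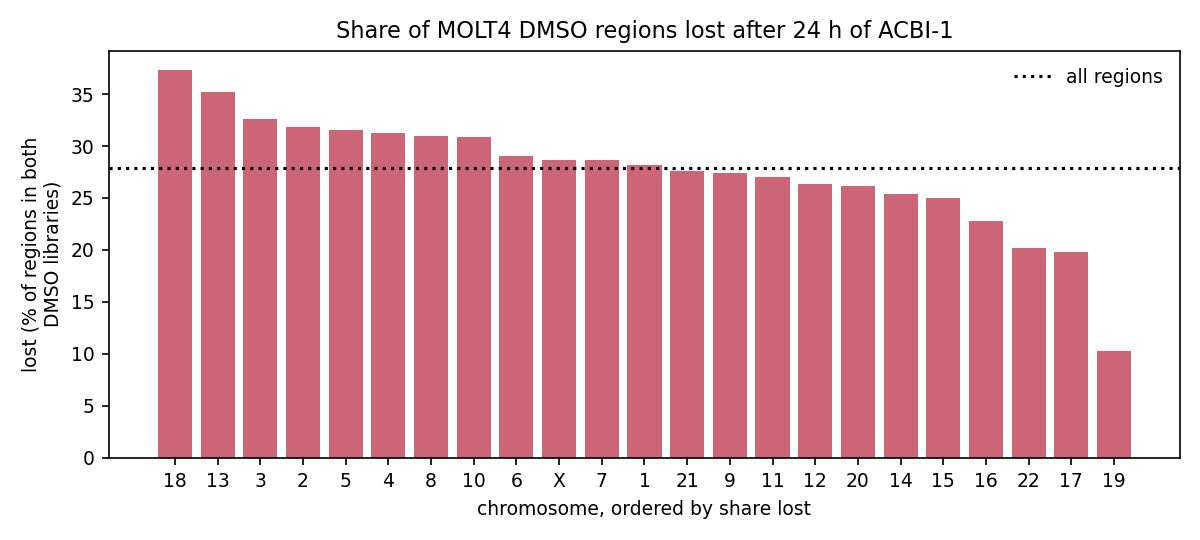
Percent of regions of both DMSO libraries that were lost, by chromosome. Chromosome 18 is highest at 37.3% and chromosome 19 lowest at 10.25%, against 27.9% over all chromosomes.

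The share lost in clusters of 3 or more neighbouring regions was near that over all regions, and lower in the largest clusters. Regions of both DMSO libraries at most about 13 kb apart were joined into 1421 clusters of 3 or more, with 5150 regions. Of these 25.6% were lost and 59.4% kept, against 27.9% and 58.9% over all regions. Among isolated regions 28.6% were lost. In the 19 clusters of 8 or more, 27 of 174 regions (15.5%) were lost and 63.8% kept, as a description over few clusters. In all, 768 clusters held both lost and kept regions, 34 lost regions only and 300 kept regions only. Whether neighbours shared a call more often than these shares give was not tested. The most lost regions in a cluster were 5, in 2 clusters: 5 of 6 on chromosome 1 from 206931183 to 206977092, with none kept, and 5 of 5 on chromosome 12 from 89619198 to 89645388. All 4 regions were lost on chromosome 1 from 229021736 to 229037878 and on chromosome 3 from 29169391 to 29195688, and 4 of 6 on chromosome 1 from 230290517 to 230325531.

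The clusters with most kept regions and none lost included 2 on the short arm of chromosome 6, in the part that holds the major cluster of histone genes. There 9 of 9 regions from 27759946 to 27806755 and 7 of 7 from 26188591 to 26235317 were kept. The others lay on chromosome 16 from 46386010 to 46428359, near the centromere, with 9 of 9, chromosome 15 from 22436017 to 22483336, with 8 of 9, and chromosome 1 from 153917741 to 153963521, with 7 of 7. The clusters with most gained regions, built from regions of both ACBI-1 libraries, had 3 of 7 on chromosome 19 from 1062830 to 1104787, 2 of 7 on chromosome 2 from 92307258 to 92325334 near the centromere, and 2 of 3 on chromosome 17 from 59488280 to 59494468. Peaks near centromeres lie in repeated sequence, and no filter for it was applied here.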

How the data were processed

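Per the submitters' processing notes, Bowtie2, Picard, SAMtools and MACS2 2.1.1.2016030 were used with the hg19 build; roles and settings are not given in the sources used here. The authors deposited 1 peak list per library, with chromosome, start, end and name. Only peak positions were used, without heights, p-values or read totals, and depth is unknown. Peak names carry the same tag in these 4 libraries and another in those of 3 h. What the tag stands for, and whether it is a threshold of the peak calling, is not stated in the labels or files, and it cannot be told apart from time.

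Merging of peaks that shared at least 1 base used Python 3.11.15, numpy 2.4.6 and pandas 2.3.3. Coordinates are hg19, counted from 1. Tests were two-sided exact permutation tests, over libraries within line and time for the 12 other libraries. Merging and calling were tested on simulated peak lists. These left out narrow and closely spaced peaks and had no drop-out between replicates, so the simulation does not cover such cases.

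Members, gene lists and tests were chosen with earlier results of these data known. Named items were the 10 broadest lost and 10 broadest gained regions by width percentile within a library, the 5 kept regions narrowed and 5 broadened most, the 5 clusters with most lost, 5 with most kept and none lost and 3 with most gained, the 2 highest and 2 lowest chromosomes, and per list the 3 loci with most lost regions and the 2 with most kept and none lost, plus SMARCA4, SMARCA2, CD3 and TAL1. Not all of them are printed, and 1 locus that the rule names is not reported here. PBRM1, NOTCH1 and the loci marked in the text were added outside this rule. The comparison at matched width, the restriction of lost and kept regions to those seen at 3 h for scoring in DND41, and the split at gene starts were added after seeing the data; scoring the DMSO sites of 3 h at 24 h was not.

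The correlation of same-numbered deviations was -0.0040 in MOLT4 at 24 h, so no shared deviation by replicate number was seen. This value cannot show whether same-numbered libraries were paired by culture or batch, which the labels do not give. Sequences of promoters are from RefSeq.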

Additional observations from a re-analysis of the deposited data

How the results depend on the processing

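For 26 results, 150 values under other settings had a test. Of these 139 kept their direction and side of the threshold and 11 did not. Tests of 2 against 2 libraries, with a smallest exact permutation p of 0.33, could not pass 0.05 in any setting. Nor could the exact permutation test in DND41 alone, with a smallest p of 0.0556. For those values only the direction could change. Of 51 values without a test, 42 stayed within 1.5 times the main count or within its error and 9 moved. The cause was not tested. With the 4 lists cut to equal length, 4707 regions were lost and 1640 gained. Without 1 of the 4 libraries the lost regions numbered 10098 to 15719, the gained 1568 to 10481 and the kept 18459 to 20195, since 1 library then defined a group, and the log2 ratio of peak number was -0.45 to -0.22. In the 12 other libraries, the gained share was 1.28 points higher with ACBI-1 at a common minimum peak width (exact permutation p = 0.528) and 17.9 points higher with 16 lists of equal length (p = 0.00926), and ran from -5.65 to -0.60 without 1 library. Gained minus kept was 19.1 points with equal lists (exact permutation p = 0.00926) and ran from -0.41 to 5.73 without 1 library, the lowest without DMSO replicate 2. In every setting with equal lists the cut removed more narrow peaks from the DMSO lists, which were longer. The gained values with equal lists cannot be told apart from an effect of that cut. The kept difference was -1.16 points with equal lists (exact permutation p = 0.111) and -5.23 with an unstratified test (p = 0.223). Isolated regions were 27.89% lost with a 5 kb gap against 28.64%.

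With the replicate number as a block, the difference for lost regions in the 12 other libraries was -33.99 points, that for kept regions -5.23 and lost minus kept -28.76 (exact permutation p = 0.03125 each, the smallest that 64 exchanges allow). Adjusted over the 5 comparisons this is 0.0521, so these 3 did not pass 0.05 with the block, which could pass them only if more of the 5 reached the smallest p. The other 2 were not called either way. For the log2 ratio of peak number the block gave exact permutation p = 0.5, the smallest that 2 pairs allow.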
